A study of Rattus norvegicus with 8 samples.

Results

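Alpha-2-macroglobulin (A2m) and haptoglobin (Hp), a pair of secreted plasma-type proteins, were followed in the rat ovary. Both were chosen by their measured DHT against control (CTL) difference, which was far below 0 in earlier results of these same arrays, so that contrast is described here for the pair and not tested. Every probe set annotated to exactly 1 of these symbols was taken, which gave 1 probe set for each gene, 2 of 31042 probe sets and 2 of 14217 genes with a symbol. Female Sprague-Dawley rats carried a capsule that released 5α-dihydrotestosterone (DHT), a form of androgen that cannot be turned into estrogen, for 12 weeks, and CTL rats carried an empty capsule. Ovaries were collected at 15 weeks of age, and the RNA came from the ovarian cortex. RNA of 3 DHT and 3 CTL animals was hybridised singly, and 1 further array per group held pooled RNA of the same 3 animals. The study describes no or very few corpora lutea in the DHT ovaries, and corpora lutea in most but not all CTL ovaries. The stage of the cycle at which each CTL ovary was taken is not given in the sources used here.

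A2m is a large protein that traps proteases of many classes and also binds cytokines and growth factors, and its complexes are cleared through the receptor Lrp1. In the rat it is a strong acute-phase protein of the liver, and outside the liver it is made by the decidua and the corpus luteum, where prolactin acting through Stat5 drives its gene. Hp binds haemoglobin that has escaped from red blood cells, and the complex is taken up through the macrophage receptor Cd163. Hp is likewise an acute-phase protein whose gene responds to IL6 and glucocorticoid in the liver.

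All levels are on the log2 scale, with 1 value for a probe set on an array. Receptor genes of smell, pheromone sensing and taste have 28 probe sets here, and the 95th percentile of their values was taken as the background level of an array, which was 2.62 to 3.05 over the 8 arrays. CTL replicate 3 stood apart. Its median over all probe sets was 3.25, against 2.97 to 3.03 on the other 7 arrays, and across probe sets it correlated with the other single CTL arrays at r = 0.866 and 0.879, whereas CTL replicates 1 and 2 correlated at 0.983 and the 3 DHT replicates at 0.984 to 0.995. Gapdh has control probe sets at both ends of its mRNA, and the 3' value minus the 5' value, which grows as the labelled RNA gets shorter, was 2.99 to 3.98 on the DHT replicates, against 0.39 and 0.62 on CTL replicates 1 and 2 and 3.49 on CTL replicate 3. It therefore moved with the groups except for CTL replicate 3, which matched the DHT arrays in this measure, and each member's change is also given against that replicate alone.

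A2m read 5.27, 5.28 and 3.18 on the log2 scale in DHT replicates 1, 2 and 3, against 9.79, 11.92 and 8.93 in CTL replicates 1, 2 and 3. The groups did not overlap, and the lowest CTL array lay 3.64 above the highest DHT array. The mean was 4.58 ± 1.21 in DHT ovaries and 10.21 ± 1.54 in CTL ovaries (SD, n = 3 each), a log2 difference of -5.63 (SE 0.99), or 49.6-fold lower with DHT. A2m was above background on all 8 arrays, although in DHT replicate 3 by 0.51 only.

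Hp read 3.95, 4.30 and 2.47 in DHT replicates 1, 2 and 3, against 7.52, 10.64 and 7.01 in CTL replicates 1, 2 and 3. These groups did not overlap either, with a gap of 2.71 between the lowest CTL and the highest DHT array. The mean was 3.57 ± 0.97 in DHT ovaries and 8.39 ± 1.96 in CTL ovaries (SD, n = 3 each), a log2 difference of -4.82 (SE 1.11), or 28.2-fold lower with DHT. In DHT replicate 3 Hp lay 0.21 below the background level, so its value there is only an upper limit. Of all probe sets, 6.85% had every DHT array below every CTL array and 0.351% were called lower by the criteria given below, but nothing is read from this for the pair, because the contrast chose it. Fewer luteal cells and less RNA per cell cannot be told apart in RNA of bulk ovarian cortex.

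**Figure D1:**
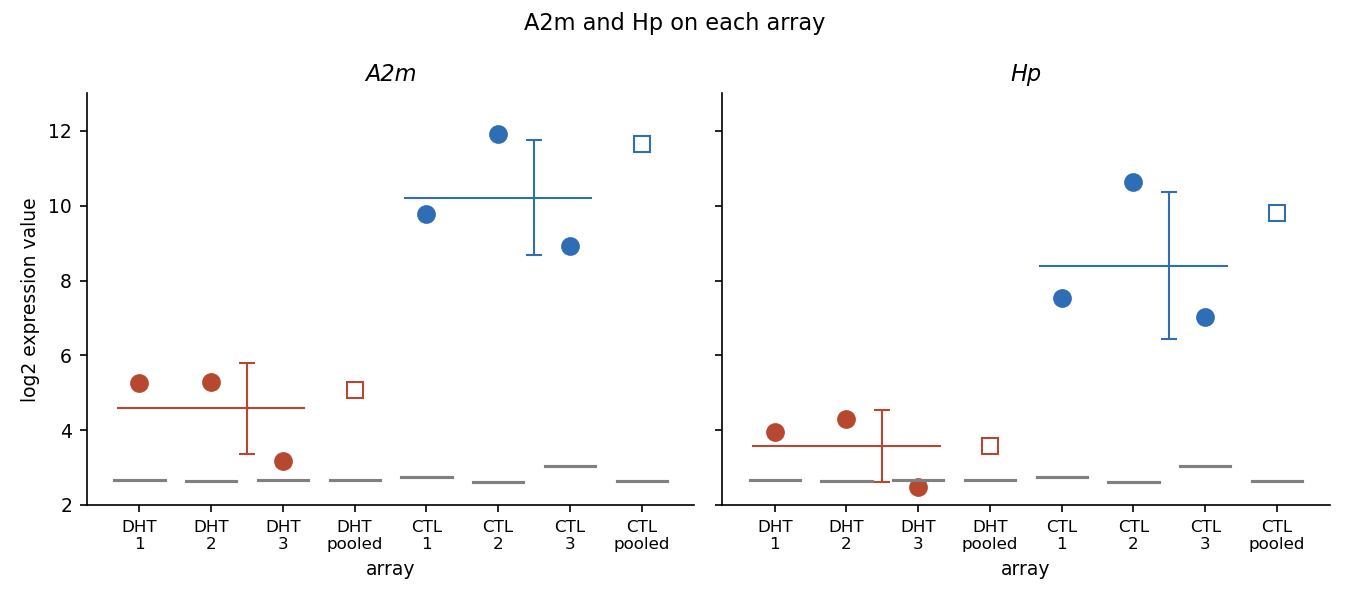
A2m and Hp log2 expression on each of the 8 arrays, DHT left of CTL. Filled points are single animals, open squares pooled RNA, long lines with error bars the mean and SD of the 3 animals, and grey dashes the background level of each array. For both genes the 3 DHT animals lie below the 3 CTL animals, DHT replicate 3 is the lowest and CTL replicate 2 is the highest.

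The pooled arrays showed the same direction. A2m read 5.09 in pooled DHT RNA and 11.65 in pooled CTL RNA, a log2 difference of -6.56, and Hp read 3.58 in pooled DHT RNA and 9.81 in pooled CTL RNA, a difference of -6.23. These arrays hold RNA of the same animals and add no replicate. Against CTL replicate 3 alone, whose Gapdh difference matched that of the DHT arrays, the mean of the DHT replicates was lower by 4.35 for A2m and by 3.44 for Hp on the log2 scale. Against CTL replicates 1 and 2 it was lower by 6.27 for A2m and by 5.51 for Hp. Leaving out each animal in turn kept A2m between -6.27 and -4.78 and Hp between -5.51 and -3.70, and for both genes the smallest difference was the one without CTL replicate 2. The differences were thus smaller against CTL replicate 3, but they were larger than the SD of either group for both genes. The part of RNA length in them was not tested.

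Across arrays A2m and Hp kept the same order of animals. Both were lowest in DHT replicate 3 and highest in CTL replicate 2, and CTL replicate 3 was the lowest of the CTL animals for both. Within the DHT group A2m spanned 2.10 log2 units and Hp 1.83, and within the CTL group they spanned 2.99 and 3.63. Relative to its own CTL mean, A2m differed by -4.94, -4.92 and -7.02 in DHT replicates 1, 2 and 3, and Hp by -4.44, -4.09 and -5.92. The change of A2m minus that of Hp was -0.81 on average in the DHT replicates (SD 0.30, n = 3). In the CTL replicates its mean is 0 by construction, and its SD was 0.50 (n = 3). Hp lay 1.28 and 1.66 above the background level in DHT replicates 1 and 2 and 0.21 below it in DHT replicate 3. Its fall in DHT replicate 3 is therefore only a lower limit, which bears on this difference.

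The likeness of the profiles was measured as the root mean square (RMS) difference, in log2 units, between values centred over the 6 single-animal arrays. Of 10503 other genes whose mean lay above background, Hp was the nearest to A2m and A2m the nearest to Hp, at 0.53, against a median of 3.09 over all genes for A2m and 2.77 for Hp. Next to A2m came Xpnpep2, an aminopeptidase, at 0.75, Fabp6, a bile acid binding protein, at 0.87, Osgin1 at 0.88, Idi1, an enzyme of isoprenoid synthesis, at 1.04 and the secreted phospholipase Pla2g1b at 1.04. Next to Hp came Xpnpep2 at 0.72, Miox, an inositol oxygenase, at 0.76, Osgin1 at 0.84, Idi1 at 0.85 and Sqle, the squalene epoxidase of cholesterol synthesis, at 0.89. The members were both chosen for being low in DHT ovaries, and the likeness over 6 arrays includes that contrast. Miox was above background on 0 of the 3 DHT arrays, Xpnpep2 on 1 and Hp on 2, so part of these differences is measured between values at the background level and the order of the neighbours is loose.

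With the contrast removed, that is, with each value taken as the deviation from the mean of its own group, Hp was the 2nd nearest gene to A2m at an RMS difference of 0.34, behind Fmod, the matrix proteoglycan fibromodulin, at 0.33, and A2m was the nearest gene to Hp. Man1a1, RT1-CE5 and Dpyd followed Hp for A2m, each at 0.35, and RT1-CE5 followed A2m for Hp, at 0.35. The median over all genes was 1.11 for A2m and 1.24 for Hp. A gene with no deviation at all would lie at 1.13 from A2m and 1.26 from Hp, so these medians are near the distance to a flat gene. Lhcgr, the receptor for luteinising hormone, was at 0.39 from each of them. This measure was chosen after the values had been seen. Median scaling of the arrays cannot change these distances. After quantile normalization each was the nearest of the other, at 0.30, so the order of these neighbours depended on this scaling while the pair stayed close. The closeness rests on 3 animals in each group and is a description of these arrays.

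Most genes for other acute-phase plasma proteins were too dim to show whether they shared the low values of the pair. In a limma fit over all 31042 probe sets, a gene was called under these criteria. Its fold change reached 2, its p did not exceed 0.01 and its false discovery rate did not exceed 10%. By these 1.03% of probe sets were called, 0.351% lower and 0.68% higher in DHT ovaries. An unadjusted p under 0.05 was reached by 3681 of 31042. With so small a share called, 0 or 1 call in a list of the sizes used here says little of that list. Of the 28 other listed proteins 23 were measured, and 0 were called lower and 1 higher, with 3 at an unadjusted p under 0.05. Their median log2 difference was -0.04, against -0.03 over all probe sets, and 20 of 23 lay below 0, against 62.5% of all probe sets, but after median scaling of the arrays the median was 0.01. Without that scaling it was -0.14 against CTL replicate 3 alone and 0.02 against CTL replicates 1 and 2. Most of the list was not detectably expressed, since 14 of 23 were at or below the background level on all 8 arrays and 18 of 23 were never more than 1 above it. Of the 5 others, Hpx and Lcn2 had lower means in DHT ovaries, and Cp, Hamp and Vtn had higher means.

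The gene called in this list was Vtn, vitronectin, an adhesion protein of plasma and matrix. It read 5.04, 5.13 and 5.67 in DHT replicates, against 4.03, 3.25 and 3.60 in CTL replicates, and rose by 1.65 (SE 0.27, limma adjusted p = 0.0892, n = 3 each). This call was lost without any 1 of the DHT replicates and without CTL replicate 1 or 2, which left 0 genes of the list called, and also with the Gapdh difference as a covariate, with a mean-variance trend and after quantile normalization. Hpx, hemopexin, which binds free haem as Hp binds haemoglobin, was the member of the list nearest to the pair in direction. It read 3.09, 3.58 and 2.82 in DHT replicates, against 5.60, 4.27 and 3.72 in CTL replicates, so that the groups did not overlap, with a log2 difference of -1.36 (SE 0.53, limma adjusted p = 0.416). It was therefore not called, and only counting the pooled arrays as replicate 4 brought it past the criteria.

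Orm1, a classical acute-phase protein of rat liver, lay below background on all 8 arrays. Hamp, the iron hormone hepcidin, had a log2 difference of 0.67 (limma adjusted p = 0.604). It read 3.83 in DHT replicate 1, but 2.88 and 2.43 in DHT replicates 2 and 3, against 2.25 to 2.45 in CTL ovaries, so the groups overlapped. Lcn2, lipocalin 2, read 4.14, 3.82 and 2.59 in DHT replicates, against 4.22, 5.18 and 3.34 in CTL replicates. Its log2 difference was -0.73 (limma adjusted p = 0.892), and its groups overlapped. Like the pair, it was lowest in DHT replicate 3 and highest in CTL replicate 2, with CTL replicate 3 the lowest CTL animal.

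**Figure D2:**
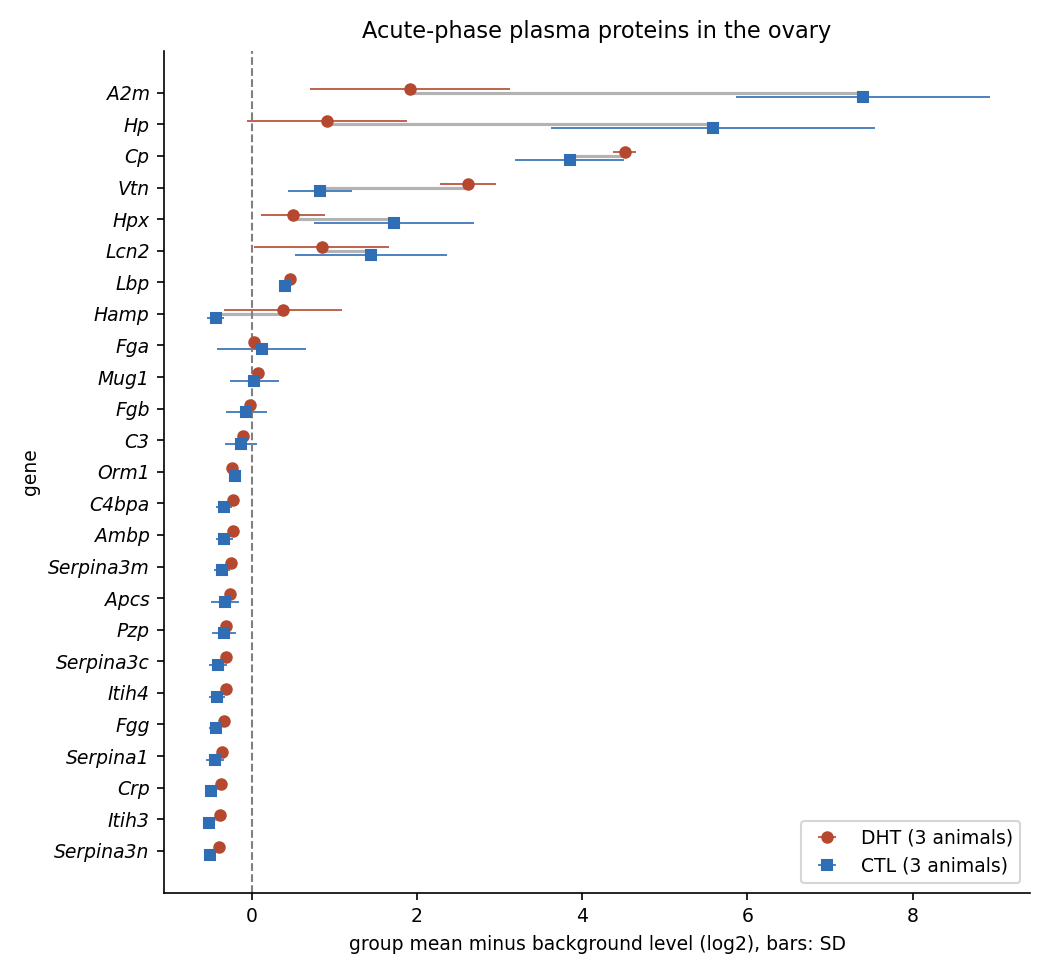
Mean log2 level minus the background level for A2m, Hp and the 23 other measured genes of the acute-phase list, with DHT (circles) above CTL (squares) in each row and bars for the SD of 3 animals. Levels can be compared between groups for 1 gene but not between genes. A2m and Hp have the widest gaps between groups (DHT minus CTL of -5.63 and -4.82 before the background is taken off), and most other genes lie at or below the dashed background line in both groups.

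Most luteal genes had lower means in DHT than in CTL ovaries, as the pair did, but only 1 passed the criteria. Of 22 listed genes 17 were measured, with a median log2 difference of -2.55, against -0.03 over all probe sets. Of these, 15 lay below 0, against 62.5% of all probe sets, and 12 had every DHT array below every CTL array, against 6.85%. Calls were 1 lower and 0 higher, against 0.351% and 0.68% of all probe sets, and 11 had an unadjusted p under 0.05. Hsd17b1, which makes estradiol in granulosa cells, went the other way, at 8.01, 7.88 and 9.28 in DHT replicates, against 7.09, 6.32 and 5.75 in CTL replicates. Its means were 8.39 in DHT ovaries and 6.39 in CTL ovaries (limma adjusted p = 0.213, n = 3 each). The study, by contrast, marks this gene as repressed in androgen and estrogen metabolism. The luteal list was drawn up with earlier results of these arrays known, and it is no independent evidence of its direction. Against CTL replicate 3 alone its median was -1.60, and against CTL replicates 1 and 2 it was -2.57. With the Gapdh difference as a covariate it was -1.30, and with each gene's probe sets averaged it was -1.41.

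Stard4, which carries cholesterol within the cell, was the gene called. It read 3.93, 3.91 and 3.93 in DHT replicates, against 6.18, 7.15 and 6.48 in CTL replicates, and fell by 2.68 (SE 0.26, limma adjusted p = 0.0508, n = 3 each). This call was lost without any 1 of the DHT replicates, which left 0 genes of the list called. Hsd17b7, which acts on estrone and in cholesterol synthesis, had a log2 difference of -5.64 (limma adjusted p = 0.106), Insig1, a brake on cholesterol synthesis, of -3.43 (limma adjusted p = 0.107), and Star, which delivers cholesterol to the mitochondrion for steroid synthesis, of -3.75 (limma adjusted p = 0.21). None of these passed the criteria, although in all 3 genes every DHT array lay below every CTL array. Hsd17b7, Insig1 and Stard4 were all called lower when dim probe sets were left out.

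Several luteal genes also had the lowest DHT animal and the highest CTL animal of the pair. Star read 8.34, 9.62 and 6.01 in DHT replicates, against 11.47, 12.39 and 11.35 in CTL replicates, again with DHT replicate 3 lowest and CTL replicate 2 highest. Sfrp4, a secreted Wnt-binding protein, read 3.75, 4.51 and 3.15 in DHT replicates, against 5.43, 7.85 and 5.77 in CTL replicates. Rln1, relaxin, a hormone of the rat corpus luteum, read 2.85, 3.19 and 2.49 in DHT replicates, against 5.53, 12.16 and 10.11 in CTL replicates. In Rln1 and Sfrp4, unlike the pair, CTL replicate 1 was the lowest CTL animal, whereas A2m and Hp were lowest in CTL replicate 3.

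Of 16 luteal genes that were more than 1 above background on some array, 8 had DHT replicate 3 as the lowest DHT animal and CTL replicate 2 as the highest CTL animal, a share of 50%. Among all 14839 such probe sets it was 15.0%. The order is not particular to luteal genes, since 5 of 7 such astrocyte and endothelial markers and 4 of 15 such protease inhibitors also had it. Of the prolactin and IL6 genes 0 of 15 had it. This order was looked for only after the values of the pair had been seen. Lhcgr followed it without differing between groups beyond their spread, at 9.89, 9.73 and 8.86 in DHT replicates, against 9.76, 11.92 and 8.69 in CTL replicates (limma adjusted p = 0.896).

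**Figure D3:**
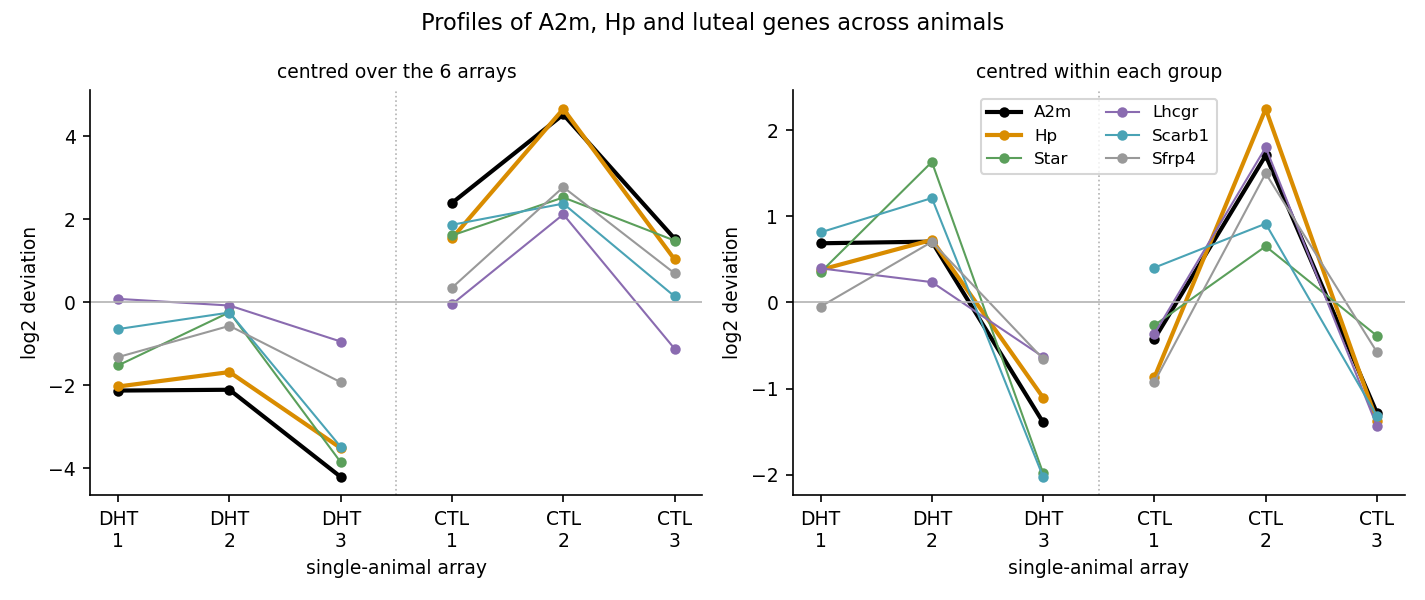
Log2 deviation of A2m, Hp and the luteal genes Star, Lhcgr, Scarb1 and Sfrp4 on each single-animal array, DHT left of CTL, centred over the 6 arrays (left panel) or within each group (right panel). The lines join arrays only to guide the eye. For all 6 genes drawn DHT replicate 3 is the lowest DHT animal and CTL replicate 2 the highest CTL animal. Star, Lhcgr, Scarb1 and Sfrp4 do not stand for their list. There, 8 of 16 genes more than 1 above background on some array had this order.

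Prolactin and IL6 signalling genes lead to A2m and Hp in other settings. Of 28 listed genes 26 were measured, with a median of -0.04. Of these 0 were called, against 1.03% of all probe sets. An unadjusted p under 0.05 was reached by 6, against 3681 of 31042 probe sets. Prlr, the prolactin receptor, read 10.54, 10.63 and 8.83 in DHT replicates, against 10.91, 11.36 and 11.55 in CTL replicates, a log2 difference of -1.28 (SE 0.54, limma adjusted p = 0.456). DHT replicate 3, in which A2m and Hp were lowest, also had the lowest Prlr value, but CTL replicate 2, in which the pair was highest, did not have the highest. Stat5a and Stat5b, which carry the prolactin signal to A2m in luteal cells, were within 1 of the background level on all 8 arrays, with log2 differences of 0.02 and -0.30. Their array values thus say little on their level.

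On the side of IL6, the cytokine Il6 itself and the feedback inhibitor Socs3 lay below background on all 8 arrays. With median scaling the median of this list was 0.01. Il6st, the signalling subunit shared by the receptors of this family, read 9.39, 9.67 and 9.65 in DHT replicates, against 8.68, 9.16 and 8.18 in CTL replicates, a log2 difference of 0.90 (limma adjusted p = 0.269). Il11ra1, a receptor of the same family, had a difference of 0.59 (limma adjusted p = 0.179). Cebpa, a transcription factor of liver and ovary, had a difference of 1.08 (limma adjusted p = 0.171), and the cytokine Il1b had one of -0.63 (limma adjusted p = 0.251). None of these passed the criteria, and the transcription factors Stat3, at -0.17, and Cebpb, at -0.81, overlapped between the groups.

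Of the 21 listed genes whose products bind, clear or handle the cargo of A2m and Hp, 16 were measured, with a median of -0.18. Of these 0 were called, against 1.03% of all probe sets, and 3 had an unadjusted p under 0.05. Lrp1, the clearance receptor of A2m, read 8.83 to 9.53 in DHT replicates, against 7.81 to 8.61 in CTL replicates, a log2 difference of 0.81 (limma adjusted p = 0.373). The groups did not overlap for Lrp1, and its sign was opposite to that of A2m. Lrpap1, its chaperone, had a difference of 0.47 (limma adjusted p = 0.31). Cd163, the receptor for the complex of Hp and haemoglobin, was close to background, at 3.05, 2.90 and 2.65 in DHT replicates and 2.67, 3.30 and 4.41 in CTL replicates, and its groups overlapped. Blvra, which reduces the biliverdin formed from haem, had a difference of -0.98 (limma adjusted p = 0.471).

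Among 23 measured genes of 26 listed for other secreted protease inhibitors, 0 were called lower and 1 higher, with 2 at an unadjusted p under 0.05 and a median of 0.06. None had every DHT array below every CTL array, against 6.85% of all probe sets, and 4 had every DHT array above, against 10.6%. Against CTL replicate 3 alone the list median was 1.03, and against CTL replicates 1 and 2 it was 0.008. The place of CTL replicate 3 thus bears on these counts. The gene called was Wfdc2, a small inhibitor of the whey acidic protein family. It read 6.10, 5.61 and 5.66 in DHT replicates, against 4.25, 3.78 and 4.64 in CTL replicates, and rose by 1.57 (SE 0.26, limma adjusted p = 0.0953, n = 3 each). The call was lost without any 1 of the DHT replicates and without CTL replicate 1 or 2, which left 0 genes of the list called, and also with the Gapdh covariate, with a mean-variance trend and after quantile normalization. Timp3, which inhibits matrix metalloproteinases, had a difference of 0.76 (limma adjusted p = 0.329), Reck, a membrane-anchored inhibitor of them, of 1.12 (limma adjusted p = 0.439), and the serpin Serpinb1a of -0.48 (limma adjusted p = 0.559).

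Of 22 listed proteases that A2m can trap, 19 were measured, with a median of -0.03 (0.03 after median scaling). Of these 0 were called, against 1.03% of all probe sets, and 2 had an unadjusted p under 0.05. Plau, the urokinase-type plasminogen activator, read 8.36, 8.69 and 9.07 in DHT replicates, against 6.68, 6.88 and 4.96 in CTL replicates, a log2 difference of 2.54 (SE 0.57, limma adjusted p = 0.156). Its groups did not overlap, and CTL replicate 3 was well below the other CTL animals. Bmp1, which trims procollagen, had a difference of 0.80 (limma adjusted p = 0.399) and Adamts5, which cuts aggrecan, of 1.05 (limma adjusted p = 0.495). Mmp13, a collagenase, was within 1 of background in DHT ovaries and read 8.41 in CTL replicate 1, against 3.57 and 3.92 in the other CTL replicates (limma adjusted p = 0.585).

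**Figure D4:**
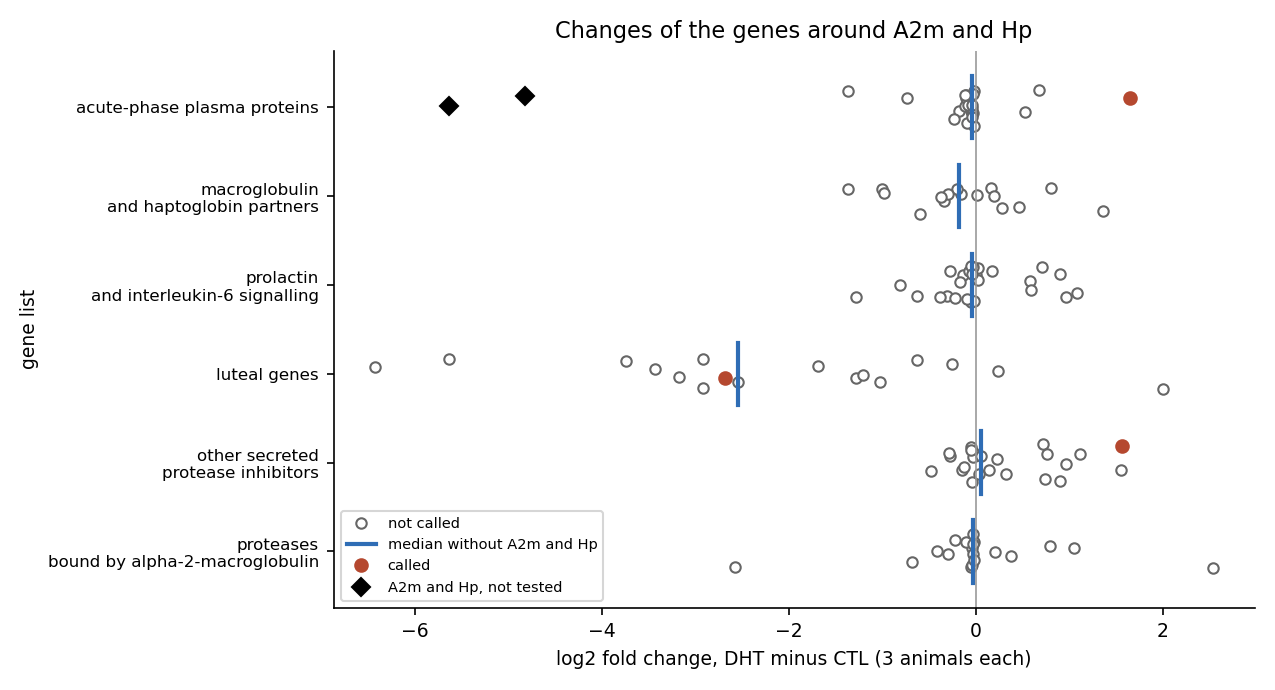
Log2 difference, DHT minus CTL (3 animals each), of each measured gene in the 6 lists (a gene in several lists is drawn in each), with the list median as a vertical line. Filled circles passed the criteria (Vtn, Stard4 and Wfdc2) and diamonds are A2m and Hp, which were not tested. The luteal list has its median at -2.55 and the other lists lie at -0.18 to 0.06.

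Markers of other cells known to hold A2m, Hp or blood proteins were read in the same arrays. For each list the linear values of its genes were summed on each array. Hepatocyte markers summed to a log2 of 6.64 to 6.76 in DHT ovaries and 6.56 to 6.78 in CTL ovaries, 11 of 16 were at or below background on all 8 arrays, and Alb, albumin, was among them. The 7 measured neutrophil markers, cells whose granules store Hp, summed to 5.43 to 5.56 in DHT ovaries and 5.39 to 5.60 in CTL ovaries, and all 7 were within 1 of the background level on every array. In both lists the groups overlapped.

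Adipocyte markers summed to 6.43 to 6.58 in DHT ovaries and 6.41 to 8.00 in CTL ovaries (10 measured), with 0 called and 1 at an unadjusted p under 0.05, and Adipoq, adiponectin, was at or below background on all 8 arrays. The 5 measured red blood cell markers summed to 7.10 to 7.88 in DHT ovaries and 5.35 to 8.11 in CTL ovaries. All of these but Hbb, a haemoglobin gene, were within 1 of the background level on every array. Hbb read 6.82 to 7.73 in DHT replicates, against 7.98, 7.80 and 3.56 in CTL replicates 1, 2 and 3. The 9 astrocyte and endothelial markers summed to 8.91 to 9.13 in DHT ovaries and 8.82 to 9.72 in CTL ovaries. In these 3 lists the overlap of the groups came from CTL replicate 3, which was below every DHT array, while CTL replicates 1 and 2 were above every DHT array. Every DHT array lay below every CTL array for 3 of 10 adipocyte markers (Fabp4, Lpl and Lipe) and 3 of 9 astrocyte and endothelial markers (Kdr, Pecam1 and Tek), against 6.85% of all probe sets, and none of these genes was called. Others went the other way with overlapping groups, namely Plin4, at 0.15, and Pparg, at 0.16, among adipocyte markers. Among astrocyte and endothelial markers these were Vwf, at 0.35, and S100b, at 0.40. Gfap lay below background on all 8 arrays, and Aqp4 was within 1 of it.

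Macrophage markers were, like the pair, lower in sum on every DHT array, with 8.77 to 9.07 in DHT ovaries and 9.52 to 10.53 in CTL ovaries. Of 16 measured, 15 lay below 0, and 7 had every DHT array below every CTL array, against 6.85% of all probe sets. Only 1, the lysosomal protease Ctss, was called lower, at -1.16 (SE 0.20, limma adjusted p = 0.0994), against 0.351% of all probe sets. This call was lost without any 1 of the DHT replicates and with the replicate number as a block. The median of the macrophage markers was -0.63, or -0.21 against CTL replicate 3 alone and -0.96 against CTL replicates 1 and 2. The luteal list summed to 12.89 to 13.81 in DHT ovaries and 14.52 to 15.58 in CTL ovaries. The 9 granulosa and theca markers had higher sums on every DHT array, at 13.23 to 13.56 in DHT ovaries and 11.24 to 12.33 in CTL ovaries. Of these 3 were called higher, namely Inhba, Insl3 and Gata4, against 0.68% of all probe sets. Every DHT array lay above every CTL array for 6 of 9, against 10.6%. Those 3 calls were likewise lost without any 1 of the DHT replicates and with the replicate number as a block. Foxl2, at 0.09, Nr5a2, at 0.22, and Cyp17a1, at 2.65, overlapped between the groups. The study had reported all measured genes of this list but Foxl2 and Nr5a2 as activated, so its direction is no independent evidence. The part of the makeup of cells in the values of A2m and Hp was not tested.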

How the data were processed

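The authors isolated total RNA from ovaries, amplified and labelled it from the 3' end, hybridised it to Affymetrix rat genome arrays and normalized by GCRMA. Deposited were log2 values, 1 for each probe set and array, corrected for background and summarised by the authors. Versions are not given in the sources used here. Gene names came from the platform annotation, with 20758 of 20826 single-symbol probe sets matched by Entrez gene to reference names of GRCr8. The 57 controls were left out. Where a gene had several probe sets, the one with the highest mean of the 6 single-animal arrays was used. DHT and CTL animals, 3 each, were compared in R 4.3.3 with limma 3.58.1 (lmFit, then eBayes), p-values being adjusted by Benjamini-Hochberg across 31042 probe sets. The fit was first tested on simulated data. Calls followed the study's criteria. The pooled arrays were left out of the fit. Fold changes are differences of mean log2 values, and the number of arrays limits their precision. Nothing in the labels says that the animals of a group were handled apart, so p-values measure only the spread between these samples.

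The members, lists and comparisons were chosen with earlier results of these data known. The genes named are the pair, in each list those called and the 4 with the smallest p, and the 6 nearest profiles of each member. Prlr, Stat5a, Stat5b, Stat3, Cebpb, Il6, Socs3, Cd163, Lhcgr, Rln1, Sfrp4, Scarb1, Hsd17b1, Fmod, Man1a1, RT1-CE5, Dpyd and the markers of cell types were named outside that rule, for their role or after their values were seen. So were Lcn2 and Cp. The check of replicate numbers gave correlations of -0.07, 0.44 and 0.34 between the deviations of same-numbered DHT and CTL animals, so the numbers were not taken as pairs. Alternatives were each array left out, the pooled arrays as replicate 4, a replicate block, quantile normalization, median scaling, a mean-variance trend, dim probe sets left out, the mean of a gene's probe sets, the Gapdh difference as a covariate and other criteria. The comparisons with CTL replicate 3 alone and with CTL replicates 1 and 2, and the likeness within groups, were added after the data had been seen.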

Additional observations from a re-analysis of the deposited data

How the results depend on the processing

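In the contrast that chose them, A2m and Hp kept their direction under every alternative run. Some alternatives cannot move the differences. Leaving out dim probe sets, averaging probe sets, the mean-variance trend and the replicate block all gave -5.63 for A2m and -4.82 for Hp. With the Gapdh difference as a covariate, which told DHT from CTL arrays except for CTL replicate 3, A2m was at -4.21 (SE 1.21) and Hp at -3.37 (SE 1.44). Leaving out each animal gave -6.27 to -4.78 for A2m and -5.51 to -3.70 for Hp.

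The number of probe sets called was not stable. Against 320 (109 lower and 211 higher), it was 3746 with the Gapdh covariate, 966 with the pooled arrays as replicate 4, 176 after quantile normalization (88 lower and 88 higher), 61 with a mean-variance trend (40 lower and 21 higher) and 29 at an adjusted p of 0.05 or less without a fold limit. Leaving out each animal gave 0 to 1622. It was 0 without any 1 of the DHT replicates (2529 to 2623 at an unadjusted p under 0.05 in limma), 181 when CTL replicate 1 was left out, 92 when CTL replicate 2 was and 1622 when CTL replicate 3 was (968 lower and 654 higher). With the replicate number as a block it was 0, with 3817 at an unadjusted p under 0.05. The block left 0 acute-phase proteins, 0 luteal genes and 0 protease inhibitors called. It cannot move the log2 differences of A2m and Hp, because each block holds 1 DHT and 1 CTL array.

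Among the lists, the acute-phase proteins (1 called) had 0 with the trend or quantile normalization, 2 with the pooled arrays and 0 to 1 with an animal left out. They had 1 with the Gapdh covariate, but it was Cp, called higher, and not Vtn. The luteal genes (1 called) had 3 with dim probe sets left out, 2 with the mean of probe sets or quantile normalization, 11 with the pooled arrays (10 lower and 1 higher) and 0 to 3 with an animal left out. The protease inhibitors (1 called) had 7 with the Gapdh covariate, 0 with the trend or quantile normalization and 0 to 2 with an animal left out. The partners of the pair (0 called) had 1 with the Gapdh covariate, 1 with the pooled arrays and 0 to 2 with an animal left out. The prolactin and IL6 genes (0 called) had 3 with the Gapdh covariate, 1 with the mean of probe sets, 1 with the pooled arrays and 0 to 1 with an animal left out. The proteases (0 called) had 1 with the Gapdh covariate, 1 with the pooled arrays and 0 to 1 with an animal left out. The cause of these shifts was not tested.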

Other observations

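The array of pooled RNA can be set beside the mean of the 3 animals it was made from, taken on the linear scale and then as log2. For A2m the pool lay 0.23 above that mean in DHT ovaries and 0.88 above it in CTL ovaries. For Hp it lay 0.18 below it in DHT ovaries and 0.50 above it in CTL ovaries. On the means of linear values A2m was 60.5-fold and Hp 46.9-fold lower in DHT than in CTL ovaries, against 49.6-fold and 28.2-fold by the mean log2 values.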
